A study of Mus musculus with 64 samples.

Results

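Gene expression in microglia of the frontal cortex was compared between day and night in 16 of the 64 libraries of the series. These are the libraries whose titles carry the cortex label, the phase label Day or Night and the condition label Soci or Cogn, and they form 4 groups of 4: Day Soci, Day Cogn, Night Soci and Night Cogn. Microglia are the resident macrophages of the brain. All groups came from adult male mice of the strain C57BL/6 (C57BL6/N in the study's methods) with no genetic change named, the meaning of Soci and Cogn is not given by the labels, and no treatment is named. The labels also do not say that each replicate was a separate animal, so the p-values measure the spread between these libraries.

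The mice lived on a reversed lighting schedule, with the lights off during the laboratory daytime. Day is read here as daytime on the laboratory clock, so Day is the dark phase, in which mice are active, and Night is the light phase, in which they rest. The labels themselves do not state the lighting. The study's text names a single time point in each phase for the microglia, so the comparison is between those time points and not between whole phases. The cells were dissociated in the cold, passed through a density step and sorted with magnetic beads against CD11b, an integrin that monocytes, neutrophils and the macrophages of the brain's borders carry as well as microglia.

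The values are raw counts per gene, with 10.7 to 21.4 Mcounts per library (1 Mcount is 1e+06 counts). Levels are given in CPM (counts scaled to a library total of 1e+06), with each total first multiplied by a TMM factor. These factors, 0.773 to 1.24 here, bring the trimmed mean log ratio of genes between libraries near 0. TMM thus assumes that most genes do not change. A level of 3 counts corresponds to 0.130 to 0.329 CPM in these libraries, counting error only. Mean totals were 13.2 ± 2.08 Mcounts by day and 15.4 ± 4.10 Mcounts at night (SD, 8 libraries each), a difference of -2.18 Mcounts (exact permutation test, two-sided, p = 0.209). Genes at the ribosomal RNA repeats (Gm26917, Gm42418, Gm23935 and Rn18s-rs5) took 29.1 to 52.2% of the counts, with a mean of 41.2 ± 6.79% by day and 37.9 ± 4.38% at night (SD), a difference of 3.33 percentage points (exact permutation test, two-sided, p = 0.266). Among them, Gm23935 took 0.113% of the counts in Night Soci replicate 2 and 0.801% in Night Soci replicate 4, and 1.90 to 7.21% in the other libraries. Day Cogn replicates 1 and 4 had the highest ribosomal shares, 51.2 and 52.2%. Some of the counts that these libraries alter are therefore also given without them.

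The label of the cells was checked against marker lists. The 22 markers of homeostatic microglia summed to 21762 to 33872 CPM by day and to 17434 to 27986 CPM at night. Cx3cr1, the fractalkine receptor, had at least 2218 CPM in every library, and the purinergic receptor P2ry12, a defining marker, at least 1385 CPM. Markers of other cells were also present: 16 neuronal genes summed to 1194 to 2542 CPM by day and 1276 to 3703 CPM at night. Most of that sum was Meg3, a long non-coding RNA (1092 CPM in the median day library and 1392 CPM in the median night library). Of 14 lymphocyte markers, 11 did not pass the count filter.

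Day and night were then compared across all genes with Soci or Cogn as a term in the fit (edgeR quasi-likelihood test, adjusted by Benjamini and Hochberg). Of 15699 genes that passed the count filter, 3217 (20.5%) differed, of which 1579 (10.1%) were higher by day and 1638 (10.4%) lower. The median change over all genes tested was -0.02 on the log2 scale, where a positive value is higher by day. Large changes were mostly falls: of 446 called genes that changed by more than 2-fold, 394 were lower by day and 52 higher. Every called gene had the same sign in Soci and in Cogn, but the calls come from the same libraries pooled, so this is not a separate check. In 424 genes (2.7%) the lowest library of 1 phase lay above the highest library of the other. Scaling by library totals instead of TMM shifted the median to -0.14 and left 2370 calls, 260 of them higher by day, which is 11% of the calls against 49.1% with TMM.

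Markers of other cell types moved with the phase. The 13 markers of border macrophages, which live at the vessels and in the meninges, summed to 1368 to 1764 CPM by day and to 872 to 1319 CPM at night, so the 2 phases did not overlap. Of these markers 7 of 13 rose by day and none fell, with a median change of 0.55, against 10.1% of all genes higher and 10.4% lower. The neuronal list went the other way, with 10 of 16 genes lower by day and a median of -0.89. Of 14 astrocyte markers 4 were lower, against 10.4% of all genes, with a median of -0.65, although the astrocyte sums overlapped (451 to 770.1 CPM by day, 341 to 2478 CPM at night). In bulk RNA, fewer cells of a type and less RNA per cell cannot be told apart. Against the same 10.4% of all genes, the oligodendrocyte lineage had 2 of 13 markers lower by day, endothelial and mural cells 1 higher and 1 lower of 14, and ependymal cilia 1 lower of 7. None of the tested markers of choroid plexus (9), neutrophils and monocytes (9), lymphocytes (3) and haemoglobin (5) passed the threshold in edgeR, and in each of these lists the summed levels overlapped between the phases (for choroid plexus 8.49 to 484 CPM by day and 32.1 to 157 CPM at night). Libraries with 0 counts of single choroid plexus markers (Folr1, Slc4a5, Sostdc1) and of the monocyte gene Plac8 were seen.

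These sums bear on the whole comparison. A score per library, the mean log2 level of a marker list, was added to the fit for neurons, astrocytes and border macrophages, and 6 genes remained past the threshold, all higher by day: Per3, Per2, Fmo2, Lyve1, Hsph1 and Ncoa1. Together the 3 scores accounted for 75% of the variance of the phase term itself, the border macrophage score alone for 63.8%, the neuronal score for 53.7% and the astrocyte score for 25.9%. With the neuronal and astrocyte scores alone, 500 genes were called, and with the border macrophage score alone 3. Phase and the makeup of the sorted cells cannot be told apart in these libraries for most of the calls that follow. Beside the neuronal and astrocyte scores 33 named genes kept their call. This is stated below for some of them only, so a gene without such a statement may have kept or lost its call. Of the 121 named genes, 88 lost their call beside the neuronal and astrocyte scores and 119 beside the border macrophage score alone. A call kept beside the former is therefore mostly not kept beside the latter.

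**Figure D1:**
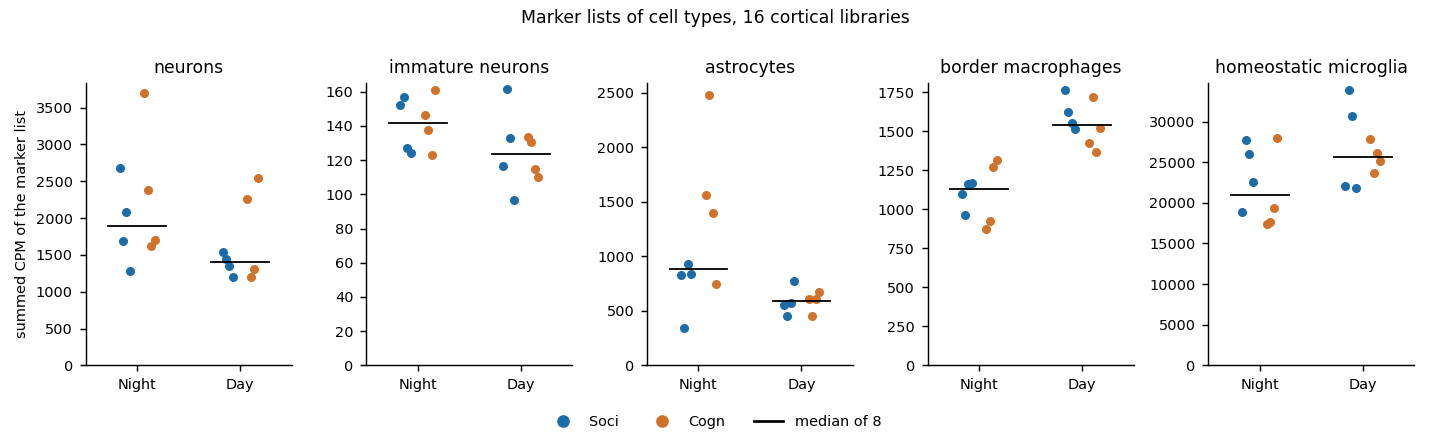
Summed level of the marker lists of neurons, immature neurons, astrocytes, border macrophages and homeostatic microglia, in CPM on linear axes from 0, in the 8 night and 8 day libraries (points, Soci blue and Cogn orange, lines at the median of 8). The border macrophage sums separate, with the lowest day library at 1368 CPM and the highest night library at 1319 CPM, and the other sums overlap.

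The circadian clock of a cell is a feedback loop of transcription. The activators ARNTL (BMAL1) and CLOCK, or NPAS2 in its place, bind E-box sequences and switch on the period and cryptochrome genes, whose proteins then shut the activators down, and the receptors REV-ERB and ROR set the level of Arntl in a second loop. In mice the period transcripts are known to be low in the early light phase and high in the dark phase. Of 15 tested genes of the loop, 4 were higher by day and 4 lower, with a median change of 0.19, and of 12 tested output genes 4 were higher and 2 lower, with a median of 0.17, against 10.1% and 10.4% of all genes. Beside the border macrophage score alone 1 loop gene was higher and 0 lower, and 0 output genes were called.

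Repressor genes were among the rises. Cry1, a cryptochrome (chromosome 10, 85131700 to 85185064, minus strand of GRCm38), had 11.2 to 17.1 CPM by day (median 12.7) and 4.09 to 7.17 CPM at night (median 5.05). The lowest day library lay above the highest night library, and Cry1 was higher by day by 1.34 ± 0.12 on the log2 scale (SE, n = 16 libraries, edgeR adjusted p = 9.89e-06). Per2 (chromosome 1, 91415982 to 91459324) had 22.4 to 33.8 CPM by day (median 23.6) and 5.97 to 15.1 CPM at night (median 10.3), again without overlap, a rise of 1.27 ± 0.16 (edgeR adjusted p = 0.000167). Per3, the third period gene, had 43.6 to 63.9 CPM by day (median 55.8) and 22.9 to 34.3 CPM at night (median 27.0), and rose by 1.04 ± 0.09 (edgeR adjusted p = 9.89e-06). All 16 libraries kept to the phase order for these genes. Per1, the first period gene, had 43.5 to 83.3 CPM by day (median 57.5) and 26.3 to 83.8 CPM at night (median 41.2), a change of 0.50 ± 0.21 that did not pass (edgeR adjusted p = 0.095). The changes of Cry1, Per2 and Per3 kept their calls beside the neuronal and astrocyte scores.

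Activator genes were among the falls. Arntl had 9.51 to 14.2 CPM by day (median 12.9) and 16.2 to 26.4 CPM at night (median 21.04), without overlap, and fell by 0.77 ± 0.12 on the log2 scale (edgeR adjusted p = 0.000573). Npas2 had 3.78 to 6.58 CPM by day (median 6.04) and 5.06 to 18.3 CPM at night (median 8.62), and its phases overlapped with a change of -0.88 ± 0.22 (edgeR adjusted p = 0.0123). Clock itself changed by 0.16 ± 0.06 and did not pass (edgeR adjusted p = 0.0708). The REV-ERB genes split: Nr1d1 had 3.24 to 5.74 CPM by day (median 4.40) and 5.80 to 17.2 CPM at night (median 8.67), a change of -1.15 ± 0.21 with no overlap (edgeR adjusted p = 0.00179), whereas Nr1d2 had 42.3 to 65.9 CPM by day (median 58.7) and 31.9 to 42.3 CPM at night (median 35.8) and was higher by 0.65 ± 0.08 (edgeR adjusted p = 0.000183). Only the lowest day library of Nr1d2 reached down to the highest night library. Rorb, a ROR receptor gene, had 2.01 to 6.06 CPM by day (median 3.44) and 1.47 to 18.1 CPM at night (median 6.24), with wide overlap and a change of -1.08 ± 0.36 (edgeR adjusted p = 0.0403), and 13 of the 16 fits that each left out a single library lost its call. It was kept without Night Soci replicate 2, Night Cogn replicate 4 or Day Soci replicate 4. Beside the neuronal and astrocyte scores the change of Arntl was -0.57 on the log2 scale (edgeR adjusted p = 0.0563), that of Npas2 -0.03 (edgeR adjusted p = 0.958) and that of Nr1d1 -0.28 (edgeR adjusted p = 0.472), and Nr1d2 kept its call at 0.60 (edgeR adjusted p = 0.0211).

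Clock outputs are genes that the loop drives without being part of it. The transcription factors of the PAR bZIP family were all higher by day. Tef had 73.3 to 99.4 CPM by day (median 88.8) and 49.5 to 65.3 CPM at night (median 53.8), without overlap, a rise of 0.67 ± 0.07 (edgeR adjusted p = 2.28e-05). Dbp had 10.1 to 11.99 CPM by day (median 11.01) and 4.83 to 8.99 CPM at night (median 7.51), also without overlap, and rose by 0.58 ± 0.11 (edgeR adjusted p = 0.00175). Hlf had 21.4 to 30.3 CPM by day (median 25.3) and 12.3 to 25.9 CPM at night (median 15.2), with overlap, and rose by 0.68 ± 0.13 (edgeR adjusted p = 0.00256). Each of these family members kept its call beside the neuronal and astrocyte scores. Usp2, a deubiquitinase of clock proteins, rose by 0.46 ± 0.09 (edgeR adjusted p = 0.00343), with levels of 91.7 to 132 CPM by day (median 105) and 63.2 to 93.0 CPM at night (median 82.5). The 2 called falls depended on which libraries were included. Cipc, a repressor of CLOCK, had 14.2 to 17.0 CPM by day (median 15.9) and 15.7 to 24.2 CPM at night (median 18.7) and a change of -0.27 ± 0.08 (edgeR adjusted p = 0.0284), lost in 8 of the 16 fits that each left out a library. Fbxl21, a ubiquitin ligase subunit that acts on cryptochromes, had 0.309 to 1.31 CPM by day (median 0.586) and 0.956 to 1.54 CPM at night (median 1.29) and a change of -0.73 ± 0.25 (edgeR adjusted p = 0.0464), lost in 12 of the 16.

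E-boxes are shown in the 250 bases before the start of Cry1 and of Tef, because these are the called clock genes with a rise whose windows hold the perfect motif CACGTG, which is its own reverse complement. The sequences are those of RefSeq on GRCm38.p6, read 5′ to 3′ on the strand of the gene, with the motif in capitals. Cry1 lies on the minus strand at chr10:85185055-85185304 with the motif at position -60 from the start, and the Tef window lies on the plus strand at chr15:81811164-81811413 with the motif at -138.
Cry1: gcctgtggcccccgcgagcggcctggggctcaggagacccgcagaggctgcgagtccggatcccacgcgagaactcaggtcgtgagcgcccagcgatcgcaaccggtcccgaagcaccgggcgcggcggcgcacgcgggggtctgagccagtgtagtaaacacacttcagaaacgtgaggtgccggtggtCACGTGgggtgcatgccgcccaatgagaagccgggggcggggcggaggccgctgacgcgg
Tef: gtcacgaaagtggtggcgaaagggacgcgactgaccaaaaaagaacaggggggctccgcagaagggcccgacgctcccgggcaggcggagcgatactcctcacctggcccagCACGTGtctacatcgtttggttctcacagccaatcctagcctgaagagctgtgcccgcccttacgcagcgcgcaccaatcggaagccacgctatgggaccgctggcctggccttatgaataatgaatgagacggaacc
Over windows that run on to 50 bases after the start, 4 of the 13 loop genes with a window held the motif (Per1, Cry1, Bhlhe41 and Ciart), as did 2 of 9 outputs (Tef and Cipc). Some genes have several windows, and counted by window the motif was in 4 of 18 loop windows and 3 of 14 output windows, beside 7.15% of all 32851 windows. Of these, Cry1 and Tef rose by day, Cipc is 1 of the falls above, and Per1 (0.50), Bhlhe41 (0.19) and Ciart (0.46) did not pass.

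**Figure D2:**
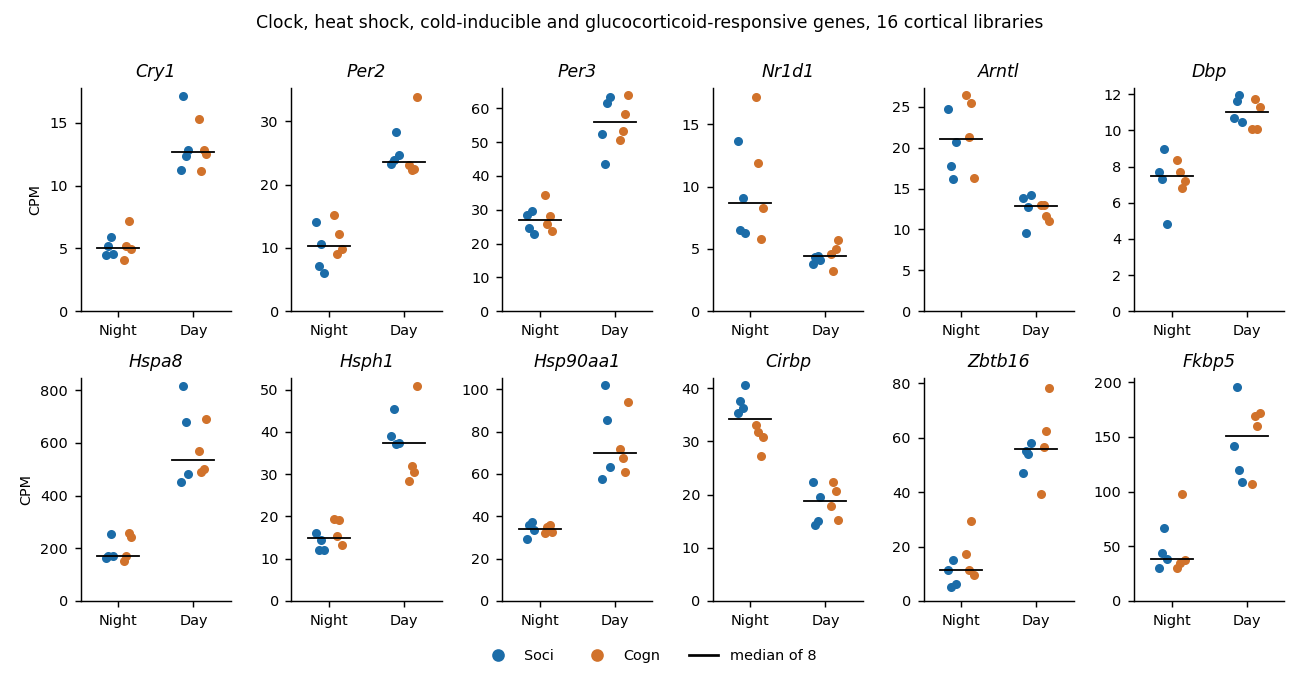
Level in CPM (linear axes from 0) of 12 clock, heat shock, cold-inducible and glucocorticoid-responsive genes in the 8 night and 8 day libraries, each point a library (Soci blue, Cogn orange) with a line at the median of 8. All 12 genes separate the phases, Nr1d1, Arntl and Cirbp with the night libraries above and the other 9 with the day libraries above.

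Heat shock genes formed the list with the most calls. Heat shock proteins are chaperones that fold or refold other proteins, and the factor HSF1 switches them on by binding repeats of GAA and its complement. The body temperature of mice is known to be higher in the active phase. Of 16 genes 14 were higher by day and none lower, with a median change of 0.89, against 10.1% of all genes, and in 8 of 16 the phases did not overlap, against 2.7%. In each of the 16 fits without a single library 14 were called, and 13 without Night Soci replicates 2 and 4 or without Day Cogn replicates 1 and 4. Beside the neuronal and astrocyte scores 11 were called, all higher by day, with a median change of 0.93. Beside the border macrophage score alone 0 were called, with a median change of 0.59.

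Hspa8, the constitutive chaperone of the HSP70 family (chromosome 9, 40800984 to 40810087, plus strand), had 453 to 815 CPM by day (median 536) and 150.0 to 258 CPM at night (median 172). Every day library lay above every night library, and the rise was 1.57 ± 0.15 on the log2 scale (SE, n = 16 libraries, edgeR adjusted p = 1.39e-05). Its partner Hsph1, which exchanges the nucleotide of HSP70, had 28.4 to 50.9 CPM by day (median 37.3) and 12.05 to 19.4 CPM at night (median 14.9) and rose by 1.31 ± 0.13 (edgeR adjusted p = 1.81e-05). The HSP90 genes moved with them: Hsp90ab1 had 328 to 560.0 CPM by day (median 403) and 159 to 217 CPM at night (median 177), a rise of 1.18 ± 0.11, and Hsp90aa1 had 57.7 to 102 CPM by day (median 69.8) and 29.4 to 37.2 CPM at night (median 34.2), a rise of 1.15 ± 0.11 (edgeR adjusted p = 1.39e-05 for both). None of these genes overlapped between the phases. Hspa8, Hsph1 and both HSP90 genes kept their calls beside the neuronal and astrocyte scores, and Hsph1 also beside all 3 scores (1.60 ± 0.22, edgeR adjusted p = 0.00464).

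Most of the other members were also higher. The HSP40 co-chaperones Dnaja1 (0.93 ± 0.11) and Dnajb1 (0.85 ± 0.12) rose without overlap, as did the mitochondrial chaperone Hspd1 (0.50 ± 0.07), while its partner Hspe1 (0.37 ± 0.10), the small heat shock gene Hspb1 (1.20 ± 0.20), the HSP70 co-chaperone Bag3 (0.54 ± 0.11), Hspa4 (0.27 ± 0.07) and the endoplasmic reticulum chaperone Hspa5 (0.50 ± 0.13) rose with overlap. The inducible genes Hspa1a and Hspa1b are near-identical copies, and their separate values of 1.26 and 2.03 are uncertain. Hsf1 changed by 0.04 ± 0.08 and the lens chaperone Cryab by -0.21 ± 0.31, and neither passed (edgeR adjusted p = 0.73 and 0.666). The cold-inducible RNA-binding gene Cirbp (chromosome 10, 80165985 to 80172786, plus strand), which mild cooling raises, went the other way, with 14.3 to 22.5 CPM by day (median 18.7) and 27.3 to 40.7 CPM at night (median 34.3). Its phases did not overlap, and it fell by 0.88 ± 0.11 on the log2 scale (edgeR adjusted p = 0.000103), a call it kept beside the neuronal and astrocyte scores. Rbm3, the other cold-inducible gene, changed by -0.24 ± 0.10 and did not pass (edgeR adjusted p = 0.102).

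Heat shock elements are shown in the 250 bases before the start of Hsph1, Hspe1 and Hspb1, which all rose. The element searched was GAA and its reverse complement TTC, in either order and with 2 bases of any kind between them. Each order is its own reverse complement, so that both strands are covered. Matches are in capitals, overlapping matches run together, and the sequences are those of RefSeq on GRCm38.p6 on the strand of the gene. Hsph1 is on the minus strand at chr5:149636337-149636586 with 1 match at -33, Hspe1 on the plus strand at chr1:55087898-55088147 with 3 overlapping matches from -89 to -79, and Hspb1 on the plus strand at chr5:135887669-135887918 with 2 matches at -117 and -97.
Hsph1: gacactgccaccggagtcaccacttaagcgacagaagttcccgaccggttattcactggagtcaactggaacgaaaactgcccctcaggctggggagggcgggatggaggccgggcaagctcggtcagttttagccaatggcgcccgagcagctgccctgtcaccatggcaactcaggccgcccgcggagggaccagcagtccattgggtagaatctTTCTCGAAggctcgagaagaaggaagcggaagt
Hspe1: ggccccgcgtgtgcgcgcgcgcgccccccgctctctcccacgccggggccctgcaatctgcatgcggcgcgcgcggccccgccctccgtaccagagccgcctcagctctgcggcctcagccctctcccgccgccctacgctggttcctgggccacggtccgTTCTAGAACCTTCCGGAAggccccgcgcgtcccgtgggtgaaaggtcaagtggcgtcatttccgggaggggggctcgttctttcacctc
Hspb1: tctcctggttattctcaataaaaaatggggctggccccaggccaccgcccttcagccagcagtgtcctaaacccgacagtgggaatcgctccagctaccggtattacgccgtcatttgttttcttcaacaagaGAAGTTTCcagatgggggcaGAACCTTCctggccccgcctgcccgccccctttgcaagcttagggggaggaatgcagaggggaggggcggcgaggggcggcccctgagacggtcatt
In windows that run on to 50 bases after the start, 8 of the 11 list members with a window held the element, and counted by window it was in 9 of 16, beside 15.1% of all 32851 windows. Some sites are counted more than once. Hspd1 and Hspe1 share the same site on opposite strands, the Hsph1 windows overlap, and Hspa1a and Hspa1b are near-identical copies. The longer form of 3 such units in alternation, starting with GAA or with TTC, was in 0.603% of all windows, those of Hsph1, Hspd1 and Hspe1 among them. In Hsph1 this longer form lies after the start, outside the sequence shown. A match is a description of the letters only.

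Glucocorticoid-responsive genes also held large rises. Glucocorticoids are adrenal hormones whose level in mice is known to peak around the start of the active phase. The list holds genes that their receptor switches on, and also Nr3c1, the gene of the receptor itself. Of 16 genes 7 were higher by day and none lower, with a median change of 0.35, against 10.1% of all genes. Zbtb16, a transcriptional repressor (chromosome 9, 48654297 to 48836222), had 39.4 to 78.4 CPM by day (median 55.9) and 5.1996 to 29.5 CPM at night (median 11.3), without overlap, and rose by 2.17 ± 0.25 (SE, n = 16 libraries, edgeR adjusted p = 6.16e-05). Fkbp5, a co-chaperone of the receptor, had 107 to 196 CPM by day (median 151) and 29.8 to 97.9 CPM at night (median 38.2) and rose by 1.64 ± 0.23 (edgeR adjusted p = 0.000305). The sulfotransferase gene Sult1a1 had 68.0 to 95.3 CPM by day (median 75.6) and 19.4 to 65.0 CPM at night (median 24.6) and rose by 1.34 ± 0.21 (edgeR adjusted p = 0.000592). None of these genes overlapped between the phases.

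Tsc22d3 (GILZ), an anti-inflammatory target of the receptor, had 55.7 to 114 CPM by day (median 73.1) and 13.1 to 69.3 CPM at night (median 18.0). Night Cogn replicate 3 alone, at 69.3 CPM, lay within the range of the day libraries, and the rise was 1.76 ± 0.30 (edgeR adjusted p = 0.00112). Zbtb16, Fkbp5 and Tsc22d3 kept their calls beside the neuronal and astrocyte scores. Beside the border macrophage score alone 0 genes of the list were called, with a median change of 0.08. The cell cycle inhibitor Cdkn1a (0.71 ± 0.18), the kinase Sgk1 (0.41 ± 0.10) and Nr3c1 itself (0.32 ± 0.08) also rose. Others did not pass, among them Ddit4, with 21.1 to 102 CPM by day (median 41.8) and 7.58 to 109 CPM at night (median 11.7), the metallothioneins Mt1 (-0.47) and Mt2 (-0.37), and Klf9 (0.08).

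**Figure D3:**
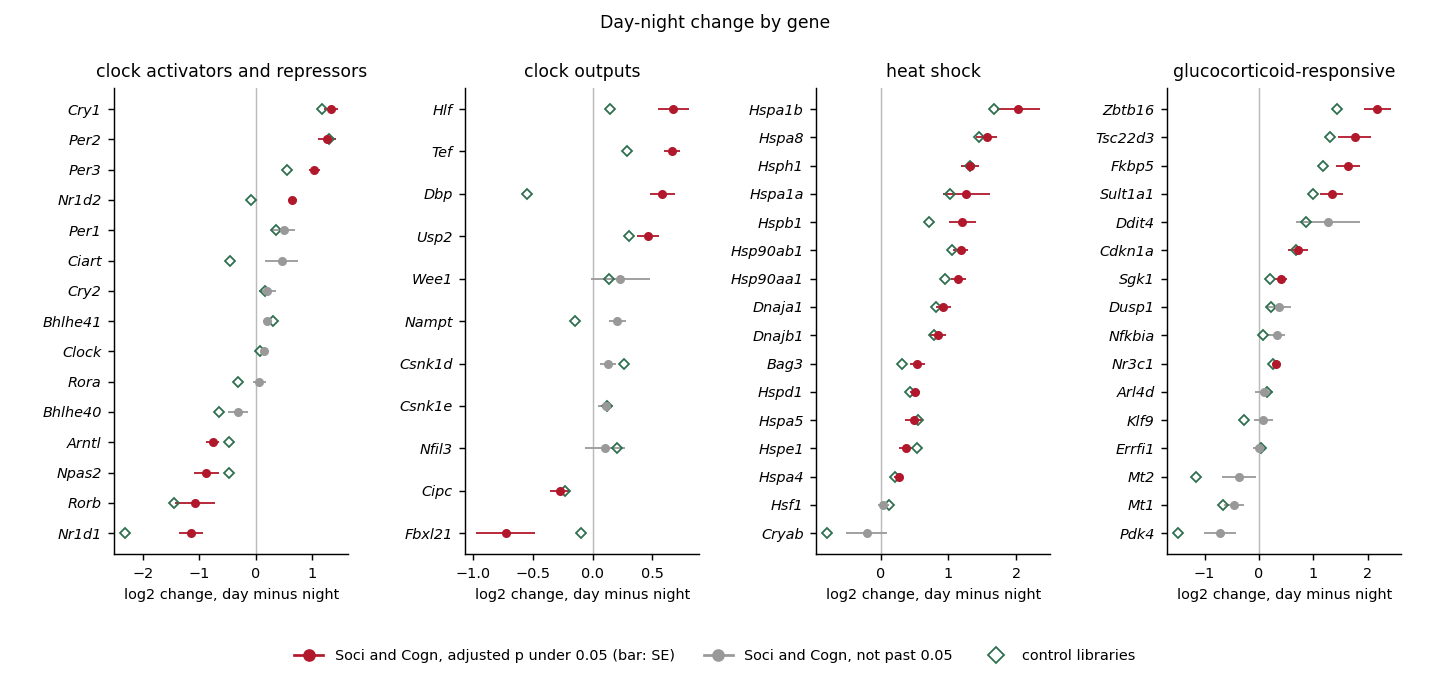
Change between day and night on the log2 scale, positive where higher by day, for genes of the clock loop (15), clock outputs (11), heat shock (16) and glucocorticoid-responsive lists (16). Circles are the Soci and Cogn libraries with bars of 1 SE, red where the adjusted p is under 0.05, and open diamonds are the control libraries. Of the heat shock genes, 14 are red and to the right of 0.

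Among well expressed genes (mean level over the libraries not below 2 in log2 CPM), the 8 largest rises were Fmo2, Lyve1, Zbtb16, Tsc22d3, Fkbp5, Ms4a4a, Cd163 and Hspa8. Fmo2, a flavin-containing monooxygenase (chromosome 1, 162874317 to 162898726), had 7.02 to 22.0 CPM by day (median 11.3) and 0.574 to 2.74 CPM at night (median 1.60), a rise of 2.94 ± 0.29 (edgeR adjusted p = 1.39e-05) that was also called beside all 3 marker scores (3.45 ± 0.47, edgeR adjusted p = 0.00464). Lyve1, the hyaluronan receptor of border macrophages (chromosome 7, 110850607 to 110863239), had 25.9 to 39.9 CPM by day (median 36.4) and 3.82 to 12.2 CPM at night (median 6.76) and rose by 2.35 ± 0.21 (edgeR adjusted p = 9.89e-06). It was called beside all 3 scores as well (1.37 ± 0.19, edgeR adjusted p = 0.00464), of which it is itself a part. Neither gene overlapped between the phases.

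Several further rises are known markers of border macrophages. Cd163, the haemoglobin scavenger receptor, had 44.1 to 77.3 CPM by day (median 65.7) and 10.3 to 36.8 CPM at night (median 18.6) and rose by 1.58 ± 0.23 (edgeR adjusted p = 0.000456). F13a1, a coagulation factor subunit, had 56.8 to 86.0 CPM by day (median 77.6) and 20.1 to 50.5 CPM at night (median 34.0) and rose by 1.19 ± 0.18 (edgeR adjusted p = 0.000556), and the mannose receptor Mrc1 had 187 to 258 CPM by day (median 242) and 78.9 to 174 CPM at night (median 121) and rose by 0.97 ± 0.15 (edgeR adjusted p = 0.000662). Their phases did not overlap, as was also so for Ms4a4a, a membrane gene of macrophages (1.61 ± 0.27). The rises were unequal within the list, from 0.32 for Stab1 to 2.35 for Lyve1, and Pf4 (0.47 ± 0.23), Folr2 (0.54 ± 0.24), Cd209f (0.55 ± 0.24), Clec10a (0.42 ± 0.21), Ms4a7 (0.45 ± 0.18) and Dab2 (0.34 ± 0.12) did not pass. The list had between 6 and 11 calls when single libraries were left out, with 11 without Night Cogn replicate 4.

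The 8 largest falls were Dcx, Hpcal4, Igfn1, Nrsn1, Zfp365, Dpysl3, Kif5a and Dlg2. Dcx encodes doublecortin, a microtubule protein of migrating young neurons (chromosome X, 143855842 to 143933311), and had 0.646 to 3.74 CPM by day (median 1.56) and 5.31 to 10.6 CPM at night (median 8.25). Its phases did not overlap, and the change was -2.08 ± 0.28 (edgeR adjusted p = 0.000305). Dpysl3, a gene of growing axons, had 1.54 to 2.78 CPM by day (median 1.85) and 3.68 to 8.10 CPM at night (median 5.86), also without overlap, and changed by -1.50 ± 0.18 (edgeR adjusted p = 0.000116). Of the list of immature neurons 9 of 12 tested genes were lower by day, against 10.4% of all genes, with a median of -1.37, among them the neuronal tubulin Tubb3 (1.29 to 2.26 CPM by day (median 1.73) and 3.42 to 6.78 CPM at night (median 4.92), without overlap), which fell by 1.47 ± 0.16 on the log2 scale (edgeR adjusted p = 5.23e-05), and the transcription factor gene Sox11 (-0.91 ± 0.19). Dcx, Dpysl3 and Tubb3 kept their calls beside the neuronal and astrocyte scores, and Tubb3 is itself a part of the neuronal score.

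In genes of mature neurons the spread among the night libraries was wide. Hpcal4, a neuronal calcium sensor, had 8.26 to 18.2 CPM by day (median 15.0) and 8.41 to 121 CPM at night (median 40.9), with the lowest night value in Night Soci replicate 2 and the highest in Night Cogn replicate 2. Kif5a, a motor of axonal transport, had 55.3 to 115 CPM by day (median 87.5) and 62.5 to 591 CPM at night (median 199), and the synaptic scaffold Dlg2 had 6.56 to 16.4 CPM by day (median 10.9) and 11.5 to 67.9 CPM at night (median 26.9). The phases overlapped in each of them, and the changes were -1.81 ± 0.33, -1.48 ± 0.28 and -1.48 ± 0.27 (edgeR adjusted p = 0.00186, 0.00237 and 0.00186). Camk2a, a kinase of excitatory synapses, changed by -1.30 ± 0.28, and the astrocyte glutamate transporter Slc1a2 by -1.22 ± 0.30. None of these last 5 kept its call beside the neuronal and astrocyte scores, where the changes were -0.69, -0.41, -0.36, -0.13 and -0.30 in that order. Camk2a is itself a part of the neuronal score and Slc1a2 of the astrocyte score, so a smaller change was partly built in for them. Without Night Soci replicates 2 and 4, 10 of the 14 astrocyte markers were lower by day instead of 4, with 7 without Night Soci replicate 2 alone and 11 without Day Soci replicate 4 alone.

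Homeostatic genes are those by which resting microglia are known. Of 22 such genes 5 were higher by day and none lower, against 10.1% and 10.4% of all genes, with a median change of 0.21, and there were 8 without Night Soci replicate 2 and 9 without Night Cogn replicate 4. Tmem119, a microglial membrane protein, had 1147 to 2083 CPM by day (median 1411) and 762 to 1279 CPM at night (median 919), with overlap, and rose by 0.59 ± 0.14 (edgeR adjusted p = 0.00992). Selplg, a selectin ligand (0.49 ± 0.12), and the transcription factor genes Runx1 (0.31 ± 0.08) and Irf8 (0.21 ± 0.06) also rose. P2ry12 (0.22 ± 0.16), Cx3cr1 (0.16 ± 0.15) and the microglial factor gene Sall1 (0.24 ± 0.09) did not pass. Of 17 genes known to rise in disease-associated microglia, 2 were higher by day (Spp1 and Gpnmb), against 10.1% of all genes, both below 6 CPM in every library, and the count lay between 0 and 6 when single libraries were left out. Apoe, a lipid carrier of that state, had 161 to 401 CPM by day (median 268) and 120.3 to 293 CPM at night (median 180.0), a change of 0.50 ± 0.19 (edgeR adjusted p = 0.0702).

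Microglia take up debris through phagocytosis and complement receptors and sense ATP through purinergic receptors. Of 20 phagocytosis genes 7 were higher by day and none lower, against 10.1% and 10.4% of all genes, with a median of 0.26, among them the integrin Itgb5 (0.53 ± 0.13), the engulfment gene Elmo1 (0.36 ± 0.09) and the antibody receptors Fcgr1 (0.47 ± 0.12) and Fcgr3 (0.50 ± 0.13). Of 16 complement genes 5 were higher and none lower, against the same shares of all genes, with a median of 0.34, among them the receptors C5ar1 (42.5 to 62.8 CPM by day (median 47.0) and 25.3 to 47.8 CPM at night (median 35.2), 0.52 ± 0.13) and C5ar2 (0.37 ± 0.09) and the regulators Cd59a and Cr1l. The C1q genes C1qa, C1qb and C1qc changed by 0.38, 0.33 and 0.35 and did not pass. In the purinergic list 2 of 17 were higher and 1 lower, against 10.1% and 10.4%. Entpd1 (CD39), the enzyme that removes extracellular ATP, had 668 to 1058 CPM by day (median 798) and 376 to 589 CPM at night (median 485), without overlap, and rose by 0.73 ± 0.12 (edgeR adjusted p = 0.000696). The potassium channel gene Kcnk6 rose by 0.58 ± 0.12, and P2rx7 (0.10 ± 0.07) did not pass. Beside the neuronal and astrocyte scores 0 genes of the homeostatic, phagocytosis, complement and purinergic lists were called. The medians there were 0.04, 0.18, 0.20 and -0.05 in that order. In that fit the change of Tmem119 was 0.42 on the log2 scale (edgeR adjusted p = 0.186) and that of C5ar1 0.41 (edgeR adjusted p = 0.198). Itgb5 changed by 0.34 (edgeR adjusted p = 0.216) and Entpd1 by 0.54 (edgeR adjusted p = 0.0542).

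Toll-like receptors sense microbial products and signal through NF-kB. Of 26 genes of this list 8 were higher by day and 2 lower, against 10.1% and 10.4% of all genes, with a median of 0.13. Tlr7, a receptor of single-stranded RNA (chromosome X, 167304929 to 167330558), had 384 to 559 CPM by day (median 438) and 163 to 317 CPM at night (median 238), without overlap, and rose by 0.95 ± 0.14 (edgeR adjusted p = 0.000456), and its neighbour Tlr8 had 6.62 to 10.2 CPM by day (median 7.84) and 2.17 to 6.18 CPM at night (median 3.16) and rose by 1.21 ± 0.19 (edgeR adjusted p = 0.000744). The receptor genes Tlr13 (0.74 ± 0.14), Tlr4 (0.47 ± 0.10), its partners Cd14 (0.59 ± 0.15) and Ly96 (0.37 ± 0.11), Tlr3 (0.37 ± 0.10) and the adaptor gene Traf6 (0.22 ± 0.07) rose with overlap. Relb and Nfkb2, the subunits of the non-canonical branch, were the 2 that fell. Relb had 5.66 to 8.70 CPM by day (median 7.003) and 8.87 to 12.9 CPM at night (median 12.2), without overlap, a change of -0.78 ± 0.10 (edgeR adjusted p = 0.000226) that kept its call beside the neuronal and astrocyte scores, and Nfkb2 had 11.3 to 16.2 CPM by day (median 13.8) and 15.7 to 21.4 CPM at night (median 19.0), a change of -0.45 ± 0.08 (edgeR adjusted p = 0.00186). The canonical subunits Rela (0.09), Rel (0.12) and Nfkb1 (0.12) did not pass. Beside the neuronal and astrocyte scores 0 genes of the list were higher and 1 lower, with a median of -0.015, so none of the rises above kept its call. Beside the border macrophage score alone 0 were called.

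Cytokines, inflammasomes and antigen presentation act downstream of such receptors. Of 14 tested cytokine and chemokine genes 1 was higher and 1 lower, against 10.1% and 10.4% of all genes: Ccl9 rose by 0.60 ± 0.12 (50.9 to 73.4 CPM by day (median 59.1) and 29.5 to 52.3 CPM at night (median 37.3), edgeR adjusted p = 0.00274), and the call of Tnf, at 1.42 to 3.77 CPM, was lost in 13 of the 16 fits without a library. Il1a (0.11 ± 0.13) and Il1b (-0.44 ± 0.35) did not pass. Of 15 inflammasome genes 2 were higher and 2 lower, against the same shares, the latter being the sensor gene Nlrp1b (27.0 to 47.1 CPM by day (median 37.7) and 45.3 to 85.6 CPM at night (median 54.5), a change of -0.67 ± 0.15, edgeR adjusted p = 0.00598) and the inflammatory caspase gene Casp4 (-0.45 ± 0.11), which both kept their calls beside the neuronal and astrocyte scores. The inflammasome count was 0 higher and 2 lower without Day Cogn replicates 1 and 4. Of 18 antigen presentation genes 4 were higher and none lower, against the same shares, a count that lay between 0 (without Night Cogn replicate 1, Night Soci replicate 4, Day Soci replicate 2 or Day Cogn replicate 2) and 10 (without Night Cogn replicate 4), and was 0 without both Night Soci replicates 2 and 4. Of 20 interferon-stimulated genes 4 were higher and none lower, against the same shares, with a median of 0.27, and 0 were higher with scaling by library totals. Without Day Soci replicate 1 there were 7, and without Night Cogn replicate 4 or Day Cogn replicate 4 there were 8. Irf9, a subunit of the factor that interferon activates, rose by 0.28 ± 0.06 without overlap, and Ifit3 by 0.71 ± 0.19.

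Soci and Cogn were compared in their day-night change by a contrast of the 4 groups in the same 16 libraries. No gene of 15699 (0%) passed the threshold in edgeR, 445 had an unadjusted p under 0.05, and DESeq2 called 0 as well. Within that fit the Soci contrast called 461 genes (2.94%) and the Cogn contrast 672 (4.28%), and 204 genes were called the same way in both. The genes of lowest unadjusted p in the contrast were the haemoglobin gene Hba-a1, the stress gene Ddit4 and Hlf, each with an adjusted p of 1.00 in edgeR, and they are named for that rank and not as changes. Hlf had a mean of 12.9 ± 0.794 CPM in Night Soci and 19.6 ± 4.30 CPM in Night Cogn (SD, 4 libraries each), beside 26.9 ± 2.82 and 24.2 ± 2.77 CPM in Day Soci and Day Cogn. The counts of calls within a condition rested on single libraries: for Soci there were 99 without Night Soci replicate 4, 135 and 138 without Day Soci replicates 2 and 3, and 243 to 265 without Night Soci replicate 1, 2 or 3. For Cogn there were 40 and 80 without Night Cogn replicates 2 and 1, 131 to 341 without Day Cogn replicate 1, 2 or 3, 400 and 1171 without Night Soci replicates 4 and 1, and 1998 without Night Cogn replicate 4.

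The same contrast in the 16 cortical control libraries, Ctr0 and Ctr1, called 3533 of 15715 genes (22.5%). Of the 3183 genes called in Soci and Cogn and tested in the controls, 3106 (97.6%) had the same sign there. The share with the same sign over all genes tested was not counted. Both comparisons called 1815 genes the same way, which is 57.0% of the former and 51.4% of the calls in the controls. No library is shared between them. Heat shock genes had the same sign there, with Hspa8 at 1.45, Hsph1 at 1.32 and Hsp90ab1 at 1.05 in the controls, and Cirbp changed there by -0.86 (edgeR adjusted p = 4.71e-05). In the border macrophage list the median change was 0.20 in the controls and 0.55 in Soci and Cogn. The neuronal and astrocyte lists had medians of -0.81 and -1.21 in the controls, so markers of other cells moved with the phase there too. Other lists had medians of opposite sign: -0.27 in the controls and 0.27 in Soci and Cogn for the interferon-stimulated genes, -0.09 and 0.29 for antigen presentation, and -0.17 and 0.16 for the disease-associated genes. The differences between these medians were not tested.

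**Figure D4:**
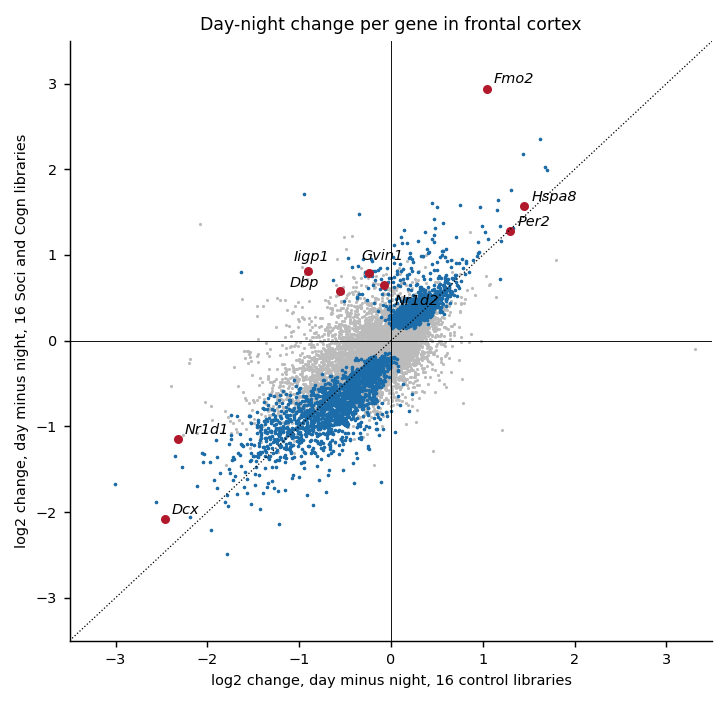
Change between day and night on the log2 scale of each gene in the 16 control libraries (horizontal) and in the 16 Soci and Cogn libraries (vertical), with 15493 genes tested in both drawn and 1 outside the axes. Blue points are genes called in Soci and Cogn, grey points the others, red points the genes named, and the dotted line marks equal change. Most blue points lie in the lower left and upper right of the plot, and Dbp, Nr1d2, Iigp1 and Gvin1 lie above the line with a change of opposite sign in the controls.

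The difference in change between these libraries and the controls was tested in all 32 cortical libraries, and 4 of 16238 genes (0.0246%) passed in edgeR, with 781 at an unadjusted p under 0.05. Dbp was the first of them, with a difference of 1.14 ± 0.17 on the log2 scale (edgeR adjusted p = 0.00276). Its night level was 7.13 ± 1.77 CPM in Soci and 7.56 ± 0.619 CPM in Cogn but 14.0 ± 1.92 CPM in Ctr0 and 17.4 ± 3.80 CPM in Ctr1 (SD, 4 libraries each), while the day means of all 4 conditions lay between 9.91 and 11.2 CPM. Nr1d2 differed by 0.74 ± 0.13 (edgeR adjusted p = 0.0183), with night means of 37.4 ± 4.53 and 35.6 ± 0.611 CPM in Soci and Cogn and of 50.2 ± 3.64 and 61.4 ± 5.29 CPM in Ctr0 and Ctr1, and day means between 49.4 and 57.5 CPM. In both genes the night means of the controls lay above those of Soci and Cogn. The other called genes, Iigp1 (1.73 ± 0.29, edgeR adjusted p = 0.0154) and Gvin1 (1.05 ± 0.18, edgeR adjusted p = 0.0183), are induced by interferon, had an average log2 CPM below 2 and were named after their values were seen. Cry1, Per2, Arntl and Nr1d1 had the same sign in the controls, at 1.18, 1.30, -0.48 and -2.32, whereas Ciart had values of -0.46 there and 0.46 in Soci and Cogn and did not pass in either. The median of the loop was -0.08 in the controls and 0.19 in Soci and Cogn. The 4 calls of the difference rested on the full set: leaving out the replicate numbers in turn left 0 to 2 genes (0 without replicate 1 or 2), scaling by library totals 0 with 396 at an unadjusted p under 0.05, and DESeq2 called 19.

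**Figure D5:**
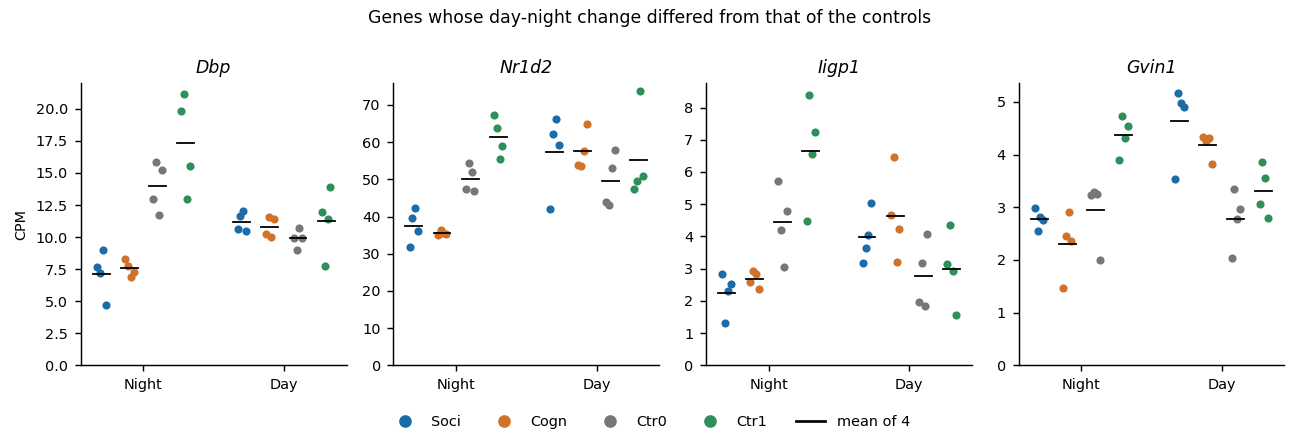
Level in CPM (linear axes from 0) of Dbp, Nr1d2, Iigp1 and Gvin1 in the night and day libraries of Soci, Cogn, Ctr0 and Ctr1, with 4 libraries each (points) and a line at the mean of 4. At night the Ctr1 means of all 4 genes lie above those of Soci and Cogn, for Dbp at 17.4 CPM against 7.13 and 7.56.

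In the hippocampus of the same conditions, 3113 of the 3176 cortical calls tested there (98.0%) had the same sign, and 1543 were called the same way, 48.6% of the cortical and 52.4% of the hippocampal calls. Here too the share with the same sign over all genes was not counted. Whether both regions came from the same animals is not stated. Cry1 changed by 1.38 in the hippocampus and 1.34 in the cortex, Per2 by 1.23 and 1.27, Dbp by 0.61 and 0.58, and Nr1d1 by -1.48 and -1.15. Tested directly over 32 libraries, 4 of 16753 genes (0.0239%) differed in change between the regions in edgeR, with 847 at an unadjusted p under 0.05. They were the anion exchanger Slc4a2 (a difference of 0.69 ± 0.11, edgeR adjusted p = 0.00802), Cab39l (1.32 ± 0.22, edgeR adjusted p = 0.0158), the cation channel Trpv4 (1.09 ± 0.19, edgeR adjusted p = 0.0202) and Ccdc170 (2.92 ± 0.52, edgeR adjusted p = 0.0223), which had 0 to 0.593 CPM in the cortical libraries and was named after its values were seen. Trpv4 in the cortex had means of 15.6 ± 1.64 and 16.8 ± 3.46 CPM by day and of 6.44 ± 1.28 and 7.81 ± 2.38 CPM at night in Soci and Cogn (SD, 4 libraries each), beside 17.0 ± 0.446 and 18.2 ± 2.71 CPM by day and 14.1 ± 4.10 and 19.0 ± 1.46 CPM at night in the hippocampus. Slc4a2 had cortical means between 39.3 and 45.0 CPM in all 4 groups, and in the hippocampus 66.5 ± 13.2 and 77.4 ± 11.6 CPM at night in Soci and Cogn. No gene passed when any replicate number was left out (edgeR, with 634 to 1073 genes at an unadjusted p under 0.05), and DESeq2 called 63 in the full set. Dcx, which fell in the cortex, changed by -0.55 in the hippocampus (edgeR adjusted p = 0.205), a difference that did not pass the test between regions.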

How the data were processed

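RNA of CD11b-sorted microglia was depleted of ribosomal RNA and sequenced. The authors deposited raw counts per gene, and the submitters' processing notes name STAR 2.7.3a, Subread 2.0.0 with featureCounts, and GRCm38.p5. Symbols and coordinates came from GENCODE M21, which matched 49412 of 49671 genes. From the counts, CPM were computed here with TMM factors (prior count of 2 on the log2 scale), and genes were filtered with filterByExpr. Day and night were compared with the quasi-likelihood test of edgeR 4.0.16 (R 4.3.3), with Soci or Cogn as a term, adjusted by Benjamini and Hochberg at 0.05. Differences in change were contrasts within 1 fit. The scripts were tested on simulated data. Alternatives were other scalings and filters, DESeq2 1.42.0, marker scores as covariates, a block on replicate number and single libraries left out. Named genes were the called clock genes, the 8 largest rises and falls (average log2 CPM of at least 2, same sign in Soci and Cogn), up to 4 called genes per list by lowest p, and defining members, apart from a few that are not reported here. Further list members are named to account for a list and were chosen after their values were seen. The members and lists were chosen with earlier results of these data known. The least different pair of replicates had a chi-square of 7.645 per degree of freedom, so all were counted as separate samples.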

Additional observations from a re-analysis of the deposited data

Results flagged for a closer look

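Among 60 groups of 4 libraries examined (chance sets a library apart in about 1 group of 20), 6 had a library far from its 3 fellows. Day Soci replicate 2 had 42.8% of its counts at the ribosomal RNA repeats against 36.6 to 37.6%, a summed level of neutrophil and monocyte markers of 181 CPM against 20.4 to 43.2 CPM, and a sum of the glucocorticoid-responsive list of 1267 CPM against 935 to 976 CPM. Night Soci replicate 2 had an astrocyte sum of 341 CPM against 829 to 928 CPM. The choroid plexus sum was 484 CPM in Day Cogn replicate 4 against 8.49 to 24.4 CPM, and 387 CPM in Day Soci replicate 4 against 17.4 to 35.7 CPM.

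The day-night change differed from that of the controls, by a contrast within 1 fit, for Dbp (1.14 on the log2 scale), Nr1d2 (0.74), Gvin1 (1.05) and Iigp1 (1.73). It differed between cortex and hippocampus for Slc4a2 (0.69), Cab39l (1.32), Trpv4 (1.09) and Ccdc170 (2.92).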

How the results depend on the processing

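The count of 3217 genes between day and night stayed within 1.5 times under every other scaling, filter and tool tried and without any single library (2381 without Night Cogn replicate 1 to 4223 without Night Cogn replicate 4), and it was 3516 without Night Soci replicates 2 and 4. The genes in that count were less stable. With library totals 1786 of the 3217 were called in the same direction, and 260 of 2370 calls were higher by day. The alternatives without Day Cogn replicates 1 and 4 (2679) and with fewer marker scores were chosen after seeing the data. With marker scores as covariates the count was 6 (all 3 scores), 500 (neurons and astrocytes) and 3 (border macrophages). The sign then turned, with all 3 scores, for Cipc 0.029, Npas2 0.52, Adora1 0.21, Atp6v0b -0.082, Cd74 -0.21, Dnah5 0.37, G6pdx -0.039, Gpnmb -0.019, H2-Ab1 -0.16, H2-T23 -0.13, Nlrc4 -0.16, Pfkp 0.13 and Sox9 0.36 (log2 changes, day minus night), with the neuronal and astrocyte scores for Pdgfrb 0.028, Pfkp 0.17 and Sox9 0.081, and with the border macrophage score for Atp6v0b -0.020, Cd74 -0.11, Gpnmb -0.033, H2-Ab1 -0.14 and Nlrc4 -0.12. The cause of these turns was not tested, and Sox9 is itself a part of the astrocyte score. Of 121 named genes, 97 kept their call without each single library, 116 lost it with all 3 scores, 27 under library totals and 0 in DESeq2. A lost call does not by itself show that the change was lost: with all 3 scores the log2 value was -0.95 for Cirbp (-0.88 without scores), -2.15 for Dcx (-2.08) and 1.17 for Cry1 (1.34), but -0.50 for Arntl (-0.77) and -0.023 for Nr1d1 (-1.15).

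For the difference from the controls, library totals gave 0, DESeq2 19 and the fits without a replicate number 0 to 2. Between regions library totals gave 15, no count filter 7, DESeq2 63 and the fits without a replicate number 0. A fit of the 8 Soci libraries alone gave 160 genes and of the 8 Cogn libraries alone 372, against 461 and 672 within the fit of all 16, where leaving out single libraries gave 99 to 640 for Soci and 40 to 1998 for Cogn. In the controls library totals gave 1877 genes (188 higher by day) and single libraries left out 2634 to 4903. The difference between Soci and Cogn stayed at 0 in edgeR and DESeq2 under every alternative run. The replicate numbers did not pair the libraries, since 9 of 24 same-numbered pairs had a correlation over 0.1 (median -0.048) and 3 of 16 libraries were closest to their own number. With the replicate block the counts were 3015, 0 for Soci against Cogn, 4 against the controls and 5 between regions. Genes near the floor of 3 counts could not be told from background at this depth.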

Other observations

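Genes of sterol synthesis, which make cholesterol in the endoplasmic reticulum, were lower by day in 6 of 23 tested and higher in none, against 10.4% and 10.1% of all genes, with a median change of -0.29 against -0.02 over all genes. The count was 11 lower without Night Soci replicates 2 and 4, and 0 beside the neuronal and astrocyte scores. The median change was -0.07 in Soci and -0.34 in Cogn. Lss, the enzyme that closes the sterol rings, had 7.79 to 9.96 CPM by day (median 9.12) and 9.97 to 14.3 CPM at night (median 12.2), without overlap, and fell by 0.42 ± 0.09 on the log2 scale (SE, n = 16 libraries, edgeR adjusted p = 0.00396). Fdft1, the squalene synthase, changed by -0.50 ± 0.12 and Mvk, the mevalonate kinase, by -0.54 ± 0.14. Of 16 genes of sterol export and fatty acid synthesis 2 were higher and 2 lower. Mylip, which removes the LDL receptor, rose by 0.47 ± 0.08 without overlap.

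The counts that follow are read against 10.1% of all genes higher by day and 10.4% lower. Of 20 glycolysis genes 3 were higher and 3 lower. Transcripts of the glucose transporter genes Slc2a3 (13.5 to 23.4 CPM by day (median 16.8) and 7.51 to 11.1 CPM at night (median 8.85), 0.97 ± 0.13, edgeR adjusted p = 0.000185) and Slc2a1 (0.95 ± 0.18) rose, and those of the phosphofructokinase gene Pfkm changed by -0.66 ± 0.19. Of 17 antioxidant genes 4 were higher and 1 lower, led by the haem oxygenase gene Hmox1 (13.9 to 24.99 CPM by day (median 17.0) and 7.22 to 13.1 CPM at night (median 8.46), 0.92 ± 0.15) and by Nfe2l2, which encodes NRF2 (0.48 ± 0.09), both without overlap. Of 18 genes of the unfolded protein response 8 were higher and none lower, with a median of 0.27, among them Dnajb9 (0.43 ± 0.12), Creld2 (0.40 ± 0.10) and Hsp90b1 (0.43 ± 0.09). With scaling by library totals 2 were higher, and without Day Cogn replicates 1 and 4 there were 3. In the cell cycle list 6 of 22 were higher and 1 lower, the latter Ccnd2 (-0.87 ± 0.15), and the proliferation marker Mki67 had 4.87 to 13.01 CPM by day (median 6.03) and 1.502 to 5.55 CPM at night (median 2.76). Of 19 immediate early genes 3 were higher and 2 lower, with Nr4a1 at -1.07 ± 0.26 and Fosb at -1.21 ± 0.29. Of 31 lysosomal genes 2 were higher (0 to 11 when single libraries were left out) and of 22 autophagy genes 2 (1 to 6). Of the 7 tested genes of the mitochondrial genome 6 were lower by day, with a median of -0.62, and the other 6 genes of that list had no count in any library. Beside the neuronal and astrocyte scores 0 mitochondrial (median -0.20), cell cycle and autophagy genes were called. The glycolysis list then had 3 higher and 0 lower. The unfolded protein response, antioxidant and immediate early lists had 1 higher each, and the lysosomal list 1 lower.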
